A study of Mus musculus with 4 samples.

Results

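The genes described here are the enzymes and carriers of the urea cycle (Nags, Cps1, Otc, Ass1, Asl, Arg1, Slc25a15 and Slc25a13) and the enzymes that free or bind ammonia as glutamine (Gls2 and Glul), in fetal livers from dams on different diets. They were chosen by name, with all non-control probes whose transcript belongs to one of them. All 10 of 10 genes had a probe, among 22909 genes with a named probe, and they had 15 of 56605 probes.

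The urea cycle turns ammonia into urea, and in mammals the liver is the organ that runs it in full. Ammonia enters in the mitochondrion, where Cps1 joins it with bicarbonate to form carbamoyl phosphate, a step that needs the activator made by Nags. Otc then passes the carbamoyl group to ornithine, the citrulline leaves for the cytosol, and Ass1, Asl and Arg1 complete the cycle, so that urea is released and ornithine goes back. Slc25a15 carries ornithine and citrulline across the inner mitochondrial membrane, and Slc25a13 (citrin) brings out the aspartate that Ass1 uses. Gls2, the liver-type glutaminase, frees ammonia from glutamine, while Glul, glutamine synthetase, binds ammonia into glutamine. In the adult liver, the cycle and Gls2 are found around the portal vein and Glul in the hepatocytes next to the central vein, whereas before birth the placenta clears much of the waste nitrogen.

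The female C57BL/6J dams were fed during gestation either a control diet (CD) or a high-fat diet (HFD). Recorded as percent of energy, CD held 4.3% fat, 19.2% protein and 67.3% carbohydrate. HFD held 60% fat, 20% protein and 20% carbohydrate. The HFD shares add up to the whole diet, but the CD shares fall short of it. The shares of the diets may thus not be on the same scale, and the size of their differences, in protein as in fat, is not read from them here. The livers were taken at 14.5 dpc, and each diet had 2 arrays, which the study calls biological replicates. How many fetuses or litters went into an array is not given in the sources used here. The comparison asks whether the ammonia-handling genes differ between the fetal livers of the 2 groups.

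The 4 arrays were on 1 slide read in 1 scan. The median intensity of a probe ranged from 70.2 to 120.5 arbitrary units, 65.4% to 70.0% of probes were well above background, and no spot was saturated. The labels call every sample female, without saying whether this is the fetus or the dam. CD replicate 1 and HFD replicate 1 had the Y-linked transcripts Ddx3y, Eif2s3y, Kdm5d and Uty well above background and Xist not, and the replicate 2 arrays had the reverse. The label female thus does not match the replicate 1 livers if it names the fetus. Within a diet, replicate 2 against replicate 1 is also a comparison between these sex patterns, whose part in the differences was not tested. The diets are balanced for these patterns, and the results are therefore also given within each replicate number, and with each array left out. Levels below are log2 intensities relative to the 75th percentile of each array, so that 0 is the level of a probe brighter than most. They compare arrays for 1 probe and do not rank one gene against another, since probes differ in brightness.

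To show what lies in front of these genes, the 250 bases before the gene start were taken from RefSeq (GRCm38.p6), where 6 of 10 members matched, and Slc25a15 had 2 such windows. No window was matched for Cps1, Asl, Arg1 and Gls2. Nags and Otc are shown for the mitochondrial steps, Ass1 for the cytosolic steps, and Glul for the enzyme outside the cycle. Each is printed 5′ to 3′ on the strand of its gene, with matches to the motifs searched in capitals.
Nags (chr11:102145263-102145512, + strand): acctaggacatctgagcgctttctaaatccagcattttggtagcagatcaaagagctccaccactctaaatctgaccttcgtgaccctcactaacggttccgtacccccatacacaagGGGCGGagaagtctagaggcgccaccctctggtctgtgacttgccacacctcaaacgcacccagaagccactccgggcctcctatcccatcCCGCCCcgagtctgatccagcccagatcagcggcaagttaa
Otc (chrX:10252055-10252304, + strand): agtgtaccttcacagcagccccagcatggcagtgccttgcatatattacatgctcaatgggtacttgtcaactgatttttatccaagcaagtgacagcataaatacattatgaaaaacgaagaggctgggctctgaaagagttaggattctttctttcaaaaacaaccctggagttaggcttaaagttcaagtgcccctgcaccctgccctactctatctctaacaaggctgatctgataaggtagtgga
Ass1 (chr2:31470020-31470269, + strand): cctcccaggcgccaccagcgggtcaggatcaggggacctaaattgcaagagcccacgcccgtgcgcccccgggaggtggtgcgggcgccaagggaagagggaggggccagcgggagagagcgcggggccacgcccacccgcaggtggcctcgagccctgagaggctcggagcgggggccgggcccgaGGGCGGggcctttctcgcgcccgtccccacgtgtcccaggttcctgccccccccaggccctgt
Glul (chr1:153899679-153899928, + strand): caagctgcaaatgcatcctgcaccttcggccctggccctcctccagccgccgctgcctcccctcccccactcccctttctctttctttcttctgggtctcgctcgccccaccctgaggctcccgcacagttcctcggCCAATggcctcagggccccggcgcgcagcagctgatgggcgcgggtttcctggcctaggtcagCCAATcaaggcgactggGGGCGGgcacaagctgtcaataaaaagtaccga

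Both strands of each window were searched for 7 motifs. The TATA box, searched as TATAAA, was found in 12.4% of the 32851 RefSeq promoter windows of the same length. The CCAAT box was found in 33.8% of them, and the GC box, searched as GGGCGG, in 32.7%. The core of the cAMP response element (TGACG) was found in 17.8%, and a core of the glucocorticoid receptor element (AGAACA) in 16.1%. The C/EBP motif was searched as TTGCNNAA and found in 9.56%, and the HNF4 motif was searched as CAAAGTCCA and found in 0.384%. The Otc window had no match and was 43.6% G and C, against a median of 52.4% over all windows. The Ass1 window was 75.6% G and C and had 1 GC box, which began 63 bases before the start. Nags had 2 GC boxes (1 on each strand), and Glul had 2 CCAAT boxes and 1 GC box in a window of 64.8% G and C. Slc25a13 had a CCAAT box and a TGACG match within 22 bases of its start, and the 2 windows of Slc25a15 held only GC boxes. None of the 7 windows had a match to the TATA box, C/EBP, glucocorticoid receptor or HNF4 letters, which says only that these letters were not there.

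Of the 15 probes, none passed the cutoffs of the study (an unadjusted p of 0.05 and a 2-fold difference) between HFD and CD, where 0.774% of all 41217 probes tested did. No member probe had an unadjusted p under 0.05 by limma, against 3.39% of all probes. None had an adjusted p under 0.05, and 0% of all probes had one, with a smallest adjusted p of 0.999963 (limma, Benjamini-Hochberg). With 2 arrays per group, the smallest p of an exact permutation test is 0.333. Arg1 and Ass1 were the members whose HFD arrays both lay above both CD arrays, and in Gls2 a dim probe lay the other way. That is 2 of 15 probes, where 19.6% of all probes had both HFD arrays above, and 1 of 15, where 11.1% had both below. In bulk liver, fewer cells of a type and less RNA per cell cannot be told apart. All 15 probes passed the filters on dim and variable probes, and 14 of them were well above background on all 4 arrays.

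**Figure D1:**
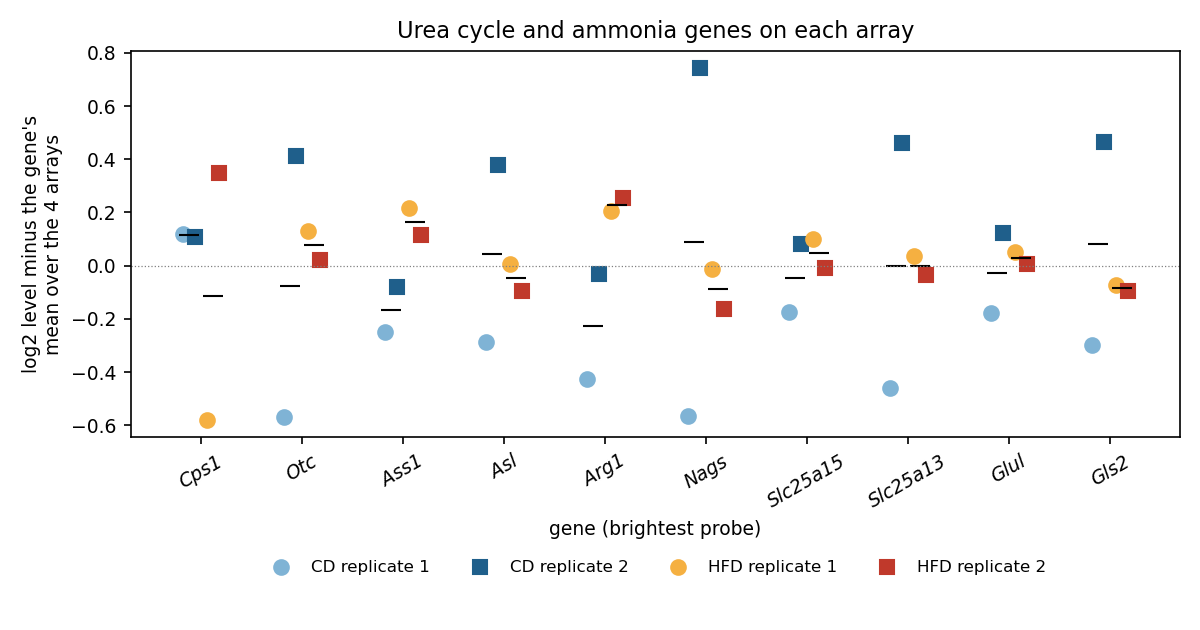
Log2 level of the brightest probe of the 10 genes on each of the 4 arrays, minus the mean of that gene over the 4 arrays (points), with short lines for the mean of the 2 arrays of a diet. The CD arrays lie 1.31 apart for Nags and 0.98 apart for Otc, with the HFD arrays between them, while both HFD arrays lie above both CD arrays for Arg1 and Ass1.

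Nags makes N-acetylglutamate, without which Cps1 is not active. Its level was −1.06 and 0.25 with CD, against −0.51 and −0.65 with HFD. The CD arrays gave the lowest and the highest value, 1.31 apart, and the HFD arrays lay between them. The difference of HFD minus CD was −0.18 ± 0.46 (log2, SE, n = 2 per group), and its 95% interval ran from −1.41 to 1.06, the widest among the 10 genes.

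Cps1 catalyses the entry step of the cycle. Its level was −1.88 and −1.89 with CD, against −2.58 and −1.65 with HFD. Here it was the HFD arrays that lay apart, on either side of a pair of CD values 0.01 from each other. HFD minus CD was −0.23 ± 0.35 (log2, SE), with an interval from −1.15 to 0.69. Without HFD replicate 1 the difference was 0.24, and without HFD replicate 2 it was −0.69.

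Otc, an X-linked gene, makes citrulline. The brighter of its 2 probes (A_52_P286360) had levels of 1.13 and 2.11 with CD, against 1.83 and 1.72 with HFD. As in Nags, CD replicate 1 was lowest and CD replicate 2 highest, and the HFD arrays lay within 0.11 of each other. The difference between diets, HFD minus CD, was 0.15 ± 0.36 (log2, SE), from −0.81 to 1.12. The other probe (A_52_P369776), matched to a predicted transcript, was dim, at −5.55 and −4.78 with CD, against −4.93 and −5.50 with HFD, and differed by −0.05 ± 0.36.

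Of the carriers, Slc25a15 had levels of −2.57 and −2.31 with CD, against −2.29 and −2.40 with HFD. The 4 arrays were within 0.27 of each other, the closest of the 10 genes, and the groups overlapped. Between the diets, HFD minus CD was 0.09 ± 0.18 (log2, SE), from −0.39 to 0.58.

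Slc25a13 stood at 1.99 and 2.91 with CD, against 2.49 and 2.41 with HFD (A_51_P251352). The HFD arrays were again between the CD arrays, whose mean was 2.45, as was that of the HFD arrays. The difference was 0.00 ± 0.35 (log2, SE), and the interval, from −0.91 to 0.92, just stayed inside a 2-fold change. A dimmer probe for a predicted transcript (A_65_P12803) differed by 0.10 ± 0.28.

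Ass1, which joins citrulline and aspartate, had levels of 3.67 and 3.84 with CD, against 4.13 and 4.03 with HFD. Both HFD arrays were above both CD arrays, by at least 0.20. For HFD minus CD this gave 0.33 ± 0.17 (log2, SE), 1.26-fold with an interval from 0.920 to 1.72, and limma gave an unadjusted p of 0.115 (adjusted p = 1.00). With an array left out, the difference was between 0.25 and 0.42.

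Asl splits argininosuccinate into arginine and fumarate. Its level was 1.21 and 1.88 with CD, against 1.51 and 1.41 with HFD, so that the HFD arrays lay between the CD arrays. As a difference of HFD minus CD, this was −0.09 ± 0.27 (log2, SE), from −0.81 to 0.63.

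Arg1, the liver arginase that releases urea, had the largest difference among the brightest probes of the 10 genes. It was at −1.11 and −0.72 with CD, against −0.48 and −0.43 with HFD, with the groups 0.23 apart at their nearest. On the log2 scale, HFD minus CD was 0.46 ± 0.21 (log2, SE), 1.37-fold with an interval from 0.941 to 2.00, and limma gave an unadjusted p of 0.0825 (adjusted p = 1.00). The difference was 0.26 without CD replicate 1, with an unadjusted p of 0.0980 by limma, and 0.65 without CD replicate 2, with an unadjusted p of 0.0102. With normexp background correction the difference was 0.46 as well, and its unadjusted p by limma was 0.0308.

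Glul had 3 probes on the same transcript. Of these, A_55_P2142146 was at 3.39 and 3.69 with CD, against 3.62 and 3.57 with HFD, and the HFD arrays lay within the CD range. Taken as HFD minus CD, the difference was 0.06 ± 0.19 for this probe, 0.02 ± 0.23 for A_66_P134479 and 0.16 ± 0.25 for A_52_P143866 (log2, SE). All 3 had CD replicate 1 as the lowest array and CD replicate 2 as the highest, so that the probes repeated the order of the arrays.

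Gls2 works in the opposite direction to Glul. Its brighter probe (A_51_P169087) was at −0.54 and 0.22 with CD, against −0.31 and −0.34 with HFD, with the HFD arrays in between. HFD minus CD was −0.17 ± 0.30 (log2, SE), from −0.96 to 0.62. A probe for another transcript of the gene (A_66_P121759) was at −5.45 and −4.25 with CD, against −5.54 and −5.66 with HFD. It was not well above background on HFD replicate 2, and CD replicate 1 was only 0.09 above the nearest HFD array. Its difference of −0.75 ± 0.43 (limma, unadjusted p = 0.147) became −1.35 without CD replicate 1, when it passed the cutoffs (limma, unadjusted p = 0.00191), and −0.15 without CD replicate 2. With normexp background correction it was −0.16.

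**Figure D2:**
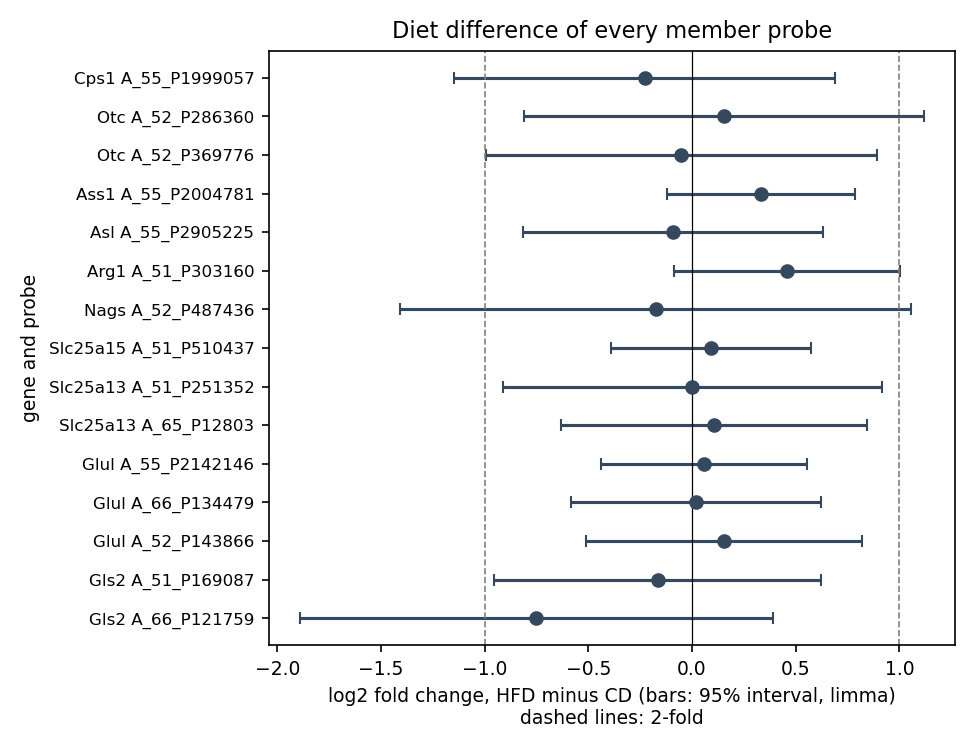
Difference of HFD minus CD (log2) of the 15 member probes, with the 95% interval from limma (bars), 2 arrays per group and dashed lines at a 2-fold difference. Every interval crosses 0, from the 0.46 of Arg1 to the −0.75 of the dim Gls2 probe.

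Over the brightest probe of each gene, the differences ran from −0.23 (Cps1) to 0.46 (Arg1), with 6 genes higher and 4 lower in HFD. Their median was 0.03, beside 0.04 over all 18148 genes tested, and their median size without sign was 0.16, beside 0.14 over all genes. Intervals reached 0.45 to 1.23 on either side of the value, and for 6 of 10 genes the whole interval was within a 2-fold change. These were Slc25a15, Slc25a13, Ass1, Asl, Glul and Gls2. For Nags, Cps1, Otc and Arg1 the interval still holds a 2-fold difference.

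For most members the CD arrays lay farther from each other than the diets did. CD replicate 2 was above CD replicate 1 in 9 of 10 genes, by a median of 0.53, while over all genes the median was 0.07 and 55.8% were higher. The CD arrays were farther apart than the HFD arrays in 9 of 10 genes, as were 78.3% of all genes. In 7 of 10 genes the diets differed by less than the CD arrays did, and in 6 of 10 both HFD arrays lay between the CD arrays. Relative to the mean of each gene over the 4 arrays, the median member was at −0.29 on CD replicate 1, 0.25 on CD replicate 2, 0.04 and −0.00 on HFD replicates 1 and 2.

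The diet difference was also taken within each replicate number. Between the replicate 1 arrays, HFD was higher in 9 of 10 genes with a median of 0.38, while 61.1% of all genes were higher with a median of 0.09. Between the replicate 2 arrays, HFD was higher in 3 of 10 genes with a median of −0.25, while over all genes the median was 0.02 and 52.7% were higher. Only Ass1 (0.47 and 0.20) and Arg1 (0.63 and 0.28) were higher in HFD in both pairs. Nags went from 0.55 to −0.90 and Otc from 0.70 to −0.39, and 7 of 10 genes were higher in the replicate 1 pair and lower in the replicate 2 pair. Cps1 was the reverse, at −0.70 and 0.24. The sign was the same in both pairs in 2 of 10 members and in 42.1% of all genes.

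**Figure D3:**
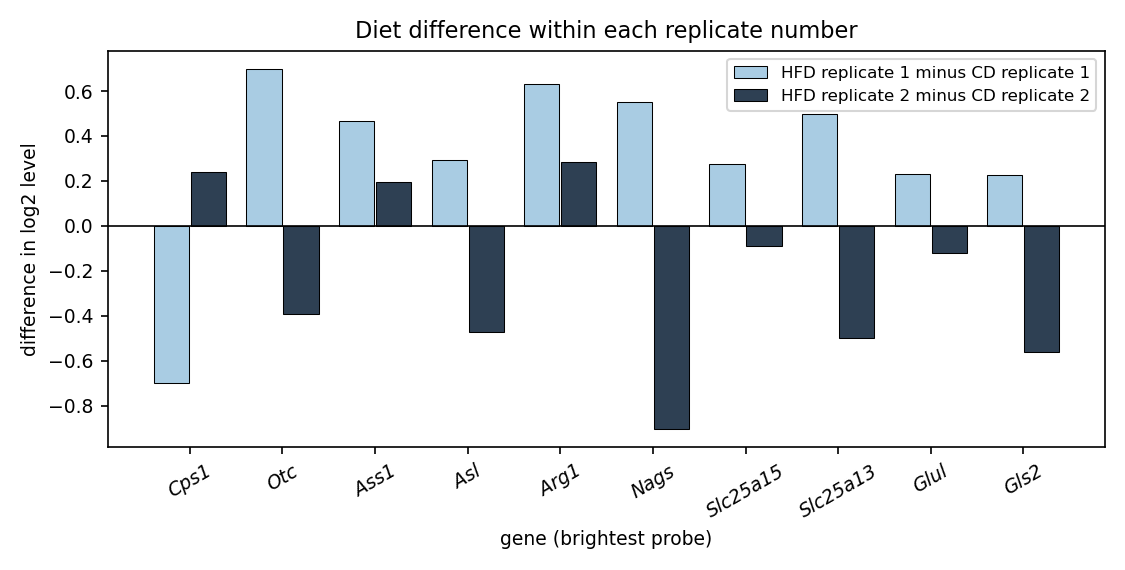
HFD minus CD in log2 level between the replicate 1 arrays (light bars) and between the replicate 2 arrays (dark bars) for the brightest probe of each gene. Both bars are above 0 for Ass1 and Arg1, and they point in opposite directions for the other 8 genes.

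The direction of several members turned with the CD array left out. Without CD replicate 1, 5 member probes had an unadjusted p under 0.05 by limma, all lower in HFD: Nags (−0.83), Asl (−0.42), Slc25a13 (−0.46) and both probes of Gls2 (−0.55 and −1.35). Without CD replicate 2 there were 6, all higher in HFD: Nags (0.48), Otc (0.64), Slc25a13 (0.46), Ass1 (0.42), Arg1 (0.65) and a probe of Glul (0.45). Nags and Slc25a13 were thus in both sets with opposite signs. Over all probes, 8733 had such a p without CD replicate 1 and 6220 without CD replicate 2, against 1397 with all 4 arrays, since the spread then came from the HFD pair alone and the remaining CD array was assumed to vary alike. No member probe had an unadjusted p under 0.05 without either HFD array.

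The same order of arrays was seen in markers of hepatocytes. On every array, 20 of 20 hepatocyte and hepatoblast genes were well above background, among them the secreted proteins Alb, Afp and Ttr. Their summed level, scaled to the 75th percentile of each array, was 2407 and 3726 with CD, against 2953 and 2947 with HFD. The summed level of the members was 33.7 and 46.1 with CD, against 44.4 and 42.2 with HFD. In both lists CD replicate 1 was lowest and CD replicate 2 highest, and the median hepatocyte gene stood 0.60 higher on CD replicate 2 than on the other CD array. Within replicate numbers its HFD minus CD was 0.40 and −0.29. Between diets, the hepatocyte list had a median of −0.01, with Alb at −0.07, Afp at −0.01 and Ttr at −0.09. None of its 20 genes passed the cutoffs, where 0.771% of all genes did. The part of hepatocyte content in the spread of the members was not tested.

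Other cell types were also present. All 14 erythroid genes with a probe, 13 of 13 myeloid genes and 8 of 8 endothelial genes passed the background flag on each array. Their median differences were 0.22, −0.07 and 0.02, and none passed the cutoffs, where 0.771% of all genes did. The summed myeloid level was 186.5 and 286.6 with CD, against 243.2 and 224.5 with HFD, in the order of the members. Of the 14 erythroid genes, 11 were lowest on CD replicate 1 and 7 highest on CD replicate 2, where 42.8% and 33.8% of all genes were. Unlike most of that list, the embryonic globins Hba-x and Hbb-y, and Rhag, were lowest on CD replicate 2. Hba-x was at 5.60 and 3.59 with CD, against 5.27 and 6.26 with HFD. Hbb-y was at 8.75 and 7.99 with CD, against 8.77 and 9.10 with HFD. Of the 14 genes, 1 had an unadjusted p under 0.05, where 2.89% of all genes did. This was the embryonic globin Hbb-bh1, at 0.60 ± 0.21 (log2, SE; limma, unadjusted p = 0.0406). Many of the trophoblast and decidua markers, such as Tpbpa, Psg18 and Cts3, are in the paper's list of lowered genes from these same arrays. A count of lowered markers is thus no separate evidence of a difference. Of the 18 markers, 12 had both HFD arrays below both CD arrays. This count includes markers that the filters left out of the test. The share of 11.1% with that order is of tested probes only, so the 2 are not alike. Over all 18 their median difference was −3.85, of which 10 were left out of the test by the filters, and their median level, counted from the 4-array mean of each marker, was 0.92 and 2.80 with CD, against −0.92 and −2.60 with HFD. On every array 14 of 18 were well above background. Their summed level moved less, at 102.6 and 137.3 with CD, against 80.0 and 93.8 with HFD, with the bright markers Psg23 at 5.08 and 5.72 with CD, against 4.97 and 5.44 with HFD, and Gcm1 at 5.65 and 4.28 with CD, against 5.43 and 5.60 with HFD. By their median, the trophoblast and decidua markers were highest on CD replicate 2, as the members were. They were lowest on HFD replicate 2, however, while the members were lowest on CD replicate 1. The part of these markers in the differences was not tested.

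**Figure D4:**
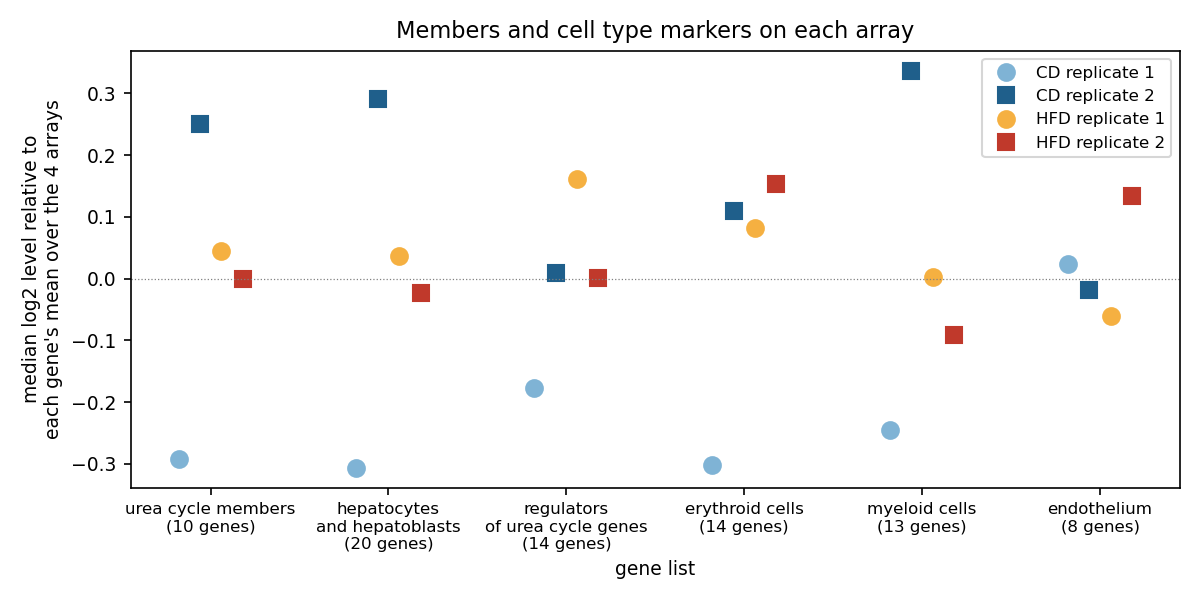
Median log2 level of 6 gene lists on each of the 4 arrays, relative to the mean of each gene over the arrays. For the members and the hepatocyte markers, CD replicate 1 is lowest (−0.29 and −0.31) and CD replicate 2 highest (0.25 and 0.29), with both HFD arrays near 0.

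Around the cycle stand the enzymes that supply or use its arginine, glutamine, glutamate and aspartate. Of 27 such genes, 25 had a probe and were tested, and none of these passed the cutoffs or had an unadjusted p under 0.05 by limma, where over the brightest probes of all genes 0.771% and 2.89% did. Their median difference was 0.17, with 21 higher and 4 lower in HFD, beside the 0.04 of all genes. Got1, the cytosolic aspartate aminotransferase, was at 2.50 and 2.50 with CD, against 2.78 and 2.89 with HFD, a difference of 0.33 ± 0.16 (log2, SE) with no overlap. Glud1, glutamate dehydrogenase, differed by −0.07 ± 0.25, and Oat, which makes ornithine into a glutamate precursor, by 0.12 ± 0.17. Sirt5, a deacylase known to act on Cps1, differed by 0.07 ± 0.16. The lowest were Nos2, an arginine-using nitric oxide synthase, at −0.21 ± 0.20, and Arg2, the mitochondrial arginase, at −0.09 ± 0.46, which was not well above background on HFD replicate 1. Sds, serine dehydratase, had the largest value of the list, but none of the 4 arrays had it well above background, and it gets no fold here. No probe was matched for Ca5a.

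Of 14 amino acid and ammonium transporters, 1 passed the cutoffs, where 0.771% of all genes did, and 2 had an unadjusted p under 0.05 by limma, where 2.89% did. Slc25a2, a further mitochondrial ornithine carrier, was at −3.82 and −3.87 with CD, against −3.32 and −3.36 with HFD. The arrays of each group lay close together and the groups did not overlap. The difference between diets, HFD minus CD, was 0.51 ± 0.16 (log2, SE; limma, unadjusted p = 0.0276, adjusted p = 1.00), and between 0.48 and 0.53 with any array left out. With all 4 arrays, the unadjusted p by limma stayed under 0.05 with quantile normalization (0.0227), the deposited table (0.0281) and the other filters. By the methods' t-test it was 0.00346. With the replicate number as a block the unadjusted p by limma was 0.0993. With normexp background correction the difference was 0.29, with an unadjusted p of 0.148 by limma.

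Rhcg, an ammonium transporter known from the kidney, was the gene past the cutoffs, at −4.88 and −5.07 with CD, against −4.44 and −3.30 with HFD. HFD replicate 2 was the highest array and CD replicate 2 the lowest, and the groups did not overlap. Between the diets, HFD minus CD was 1.11 ± 0.42 (log2, SE; limma, unadjusted p = 0.0493, adjusted p = 1.00), but 0.53 without HFD replicate 2 and 1.68 without HFD replicate 1. Without CD replicate 1 or CD replicate 2, the difference was 1.20 or 1.01. With normexp background correction the value was 0.45, with an unadjusted p of 0.0871 by limma. With all 4 arrays, Rhcg also missed the cutoffs with the methods' test, quantile normalization, the deposited table, and either change to the CV filter. It stayed past them with the replicate number as a block, no percentile filter, and only probes well above background (limma, unadjusted p = 0.0108, 0.0455 and 0.0438). Kidney markers were highest on the same array, with a summed level of 8.52 and 6.10 with CD, against 9.16 and 9.87 with HFD, 8 of 10 of them well above background on every array. Not all followed, since Wt1 was highest on HFD replicate 1, Six2 on CD replicate 1 and Pax2 on CD replicate 2. Gonad and adrenal markers were also highest on HFD replicate 2 by their median (0.69, beside 0.39 for kidney), though not by their sum. The part of these lists in the value of Rhcg was not tested. Rhbg, the related liver transporter, differed by −0.09 ± 0.24, and Slc38a3, which moves glutamine in and out of hepatocytes, by −0.21 ± 0.39. The lowest were the glutamate transporter Slc1a2, at −0.47 ± 0.32, and Slc38a2, at −0.26 ± 0.20.

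Of 14 regulators of urea cycle genes, none passed the cutoffs or had an unadjusted p under 0.05 by limma, where 0.771% and 2.89% of all genes did. Their median was 0.14, beside 0.04 over all genes. Hnf4a, a hepatocyte nuclear receptor that is also in the hepatocyte list, was at 3.91 and 4.01 with CD, against 4.32 and 4.27 with HFD. Both HFD arrays were above both CD arrays, and the difference was 0.34 ± 0.16 (log2, SE; limma, unadjusted p = 0.0956). Sirt1, a deacetylase, was next at 0.27 ± 0.16. The factors Cebpa and Cebpb differed by 0.19 ± 0.18 and 0.22 ± 0.16, and Nr3c1, the glucocorticoid receptor, by 0.04 ± 0.16. Ppargc1a, a coactivator induced in fasting, differed by 0.16 ± 0.18, and the glucagon receptor Gcgr by 0.18 ± 0.18. The lowest were Foxa3, at −0.11 ± 0.30, and Crebbp, at −0.08 ± 0.18.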

How the data were processed

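Total RNA of 4 fetal liver samples, 2 per diet, was labelled with Cy3 and hybridised to an Agilent mouse array. Per spot, the authors deposited an intensity from Feature Extraction (version 11.0.1.1, per the submitters' processing notes) that was background-subtracted but not scaled between arrays, the median brightness and local background, also intensities, and flags, which are scores of 0 or 1. A further deposited table holds the authors' normalized signal of 41471 probes, in which each array's column was its intensity divided by 1 constant, within 0.1%.

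Spots with an outlier flag were left out, log2 was taken, spots of a probe were averaged, and each array's 75th percentile was subtracted. Left out were probes below the 20th percentile on at least 1 array (14980) and those with a CV over 50% in both groups (399). This CV was of the linear intensity before scaling, while the paper gives its CV on the log scale. With the CV of the log2 signal, 41614 probes were kept. In the main setting 41217 were tested with limma 3.58.1 in R 4.3.3 (HFD minus CD, 4 arrays, no covariates), with Benjamini-Hochberg adjustment. The p-values measure only the spread between these arrays, and their number limits the precision. Genes were named by RefSeq transcript (GRCm38.p6), for 32994 of 56605 probes, and the brightest probe stands for a gene. The rest was done in Python 3.11.15 (pandas 2.3.3, numpy 2.4.6, and for plots matplotlib 3.10.9). The limma fit alone was tested on simulated data.

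The members, gene lists and tests were chosen with earlier results of these data known. All members were named, as were fixed pathway genes, genes past the cutoffs and the 2 highest and 2 lowest of each pathway list, except 1 pathway gene, whose result is not reported here. No gene is named for a like pattern, since 4 arrays are too few for a correlation. The gene lists were the members, partner enzymes, transporters, regulators, perivenous and periportal genes, and markers of hepatocytes, erythroid, myeloid, endothelial and trophoblast cells, gut, kidney, brain, gonad and adrenal, and sex. Alternatives were quantile normalization, normexp (offset 50, on the median brightness, as no mean brightness was among the columns), the deposited table, other filters, the methods' t-test, a replicate block, each array left out, and the mean over the probes of a gene. Deviations of arrays with the same number correlated at −0.11 over probes, so the numbers were not taken as pairs.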

Additional observations from a re-analysis of the deposited data

How the results depend on the processing

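With all 4 arrays, the count of member probes past the cutoffs was 0 and that at an unadjusted p under 0.05 was 0 under each other setting, except that normexp gave 1 of the latter (Arg1). With each array left out these counts ran from 0 to 1 and from 0 to 6, and the median difference of the members, 0.03 with all arrays, ran from −0.28 (without CD replicate 1) to 0.33 (without CD replicate 2). In analyses chosen after seeing the data, this median was 0.38 with the replicate 1 arrays only and −0.25 with the replicate 2 arrays only. With the replicate number as a block (replicate block) both counts were 0, and it changed the side of the threshold for no member probe. Crossed numbers as the block, also chosen after seeing the data, gave counts of 0 and 0, with 404 probes past the cutoffs over all, against 420 with the block and 319 without. Of 195 single-probe alternatives, 165 kept direction and side, 20 turned direction, and 12 passed the unadjusted threshold, 2 of them among those that turned. The turned values were 0.033 for Otc A_52_P369776 with normexp, −0.00052 for Slc25a13 A_51_P251352 with the deposited table, and, with quantile normalization, −0.040 for the same probe, −0.017 for Glul A_55_P2142146 and −0.016 for Glul A_66_P134479. The others came from leaving out an array, with ranges of −0.83 to 0.48 for Nags, −0.69 to 0.24 for Cps1, −0.34 to 0.64 and −0.44 to 0.33 for Otc, −0.035 to 0.22 for Slc25a15, −0.46 to 0.46 and −0.21 to 0.42 for Slc25a13, −0.42 to 0.24 for Asl, −0.096 to 0.21, −0.23 to 0.27 and −0.14 to 0.45 for Glul, and −0.55 to 0.22 for Gls2 A_51_P169087. Over all probes, the count past the cutoffs was 45 with normexp, 97 by the methods' t-test, 196 with only probes well above background, 844 with no percentile filter, and 1236, 728, 827 and 613 without CD replicate 1, CD replicate 2, HFD replicate 1 and HFD replicate 2. No probe had an adjusted p under 0.05 by limma, except 1 with normexp and 9 without HFD replicate 1. The causes were not tested. The dim probes, at or near the background, limit what can be seen of the other Gls2 and Otc transcripts.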

Other observations

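Genes that mark the zones of the adult liver were read in the same way. Of 12 perivenous genes and Wnt targets, 11 were tested and none passed the cutoffs, where 0.771% of all genes did. The median difference of HFD minus CD was 0.02. The highest were Cyp2e1, an ethanol-metabolizing cytochrome, at 0.36 ± 0.19 (log2, SE), and the Wnt target Nkd1, at 0.28 ± 0.50, which was −0.42 without CD replicate 2. The lowest were Cyp27a1, at −0.18 ± 0.27, and Gulo, at −0.13 ± 0.29.

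Of 9 periportal genes, none passed the cutoffs, where 0.771% of all genes did, and the median difference was −0.07, the value of Alb. This list is not separate from those above. It holds the member Gls2, Alb of the hepatocyte list, and Sds, which was well above background on no array. Pck1, the gluconeogenic enzyme, was at −3.97 and −3.22 with CD, against −3.10 and −2.56 with HFD, a difference of 0.77 ± 0.35 (log2, SE; limma, unadjusted p = 0.0821, adjusted p = 1.00). The groups did not overlap, but the difference was 0.39 without CD replicate 1, 1.14 without CD replicate 2, 1.04 without HFD replicate 1 and 0.50 without HFD replicate 2. Cyp2f2 was at −2.39 and −2.64 with CD, against −2.67 and −4.27 with HFD, a difference of −0.96 ± 0.56 that was −0.16 without HFD replicate 2. G6pc differed by −0.22 ± 0.27 and was well above background on only the replicate 1 arrays.

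Of the lists for other tissues, gut, stomach and pancreas had 12 genes tested and a median difference of 0.06, kidney had 7 and 0.47, developing brain had 9 and −0.63, gonad and adrenal had 8 and 0.66, and trophoblast and decidua had 8 and −0.16, beside −3.85 over all 18 genes with a probe, of which the filters left out 10. Of these, 1 kidney gene and 2 gonad and adrenal genes were past the cutoffs and higher in HFD, and 1 trophoblast gene was lower, where 0.771% of all genes were past the cutoffs in either direction. Among them Cdh16, Cyp11a1 and Tpbpb are in the paper's list of changed genes from these same arrays, so their calls are no separate evidence. None of the 5 sex-linked transcripts passed the filters.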
